A study of Mus musculus with 8 samples.

Results

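miR-132 and miR-212 (mmu-miR-132 and mmu-miR-212 on the array) were followed across the mammary tissues of pubertal mice on a mouse miRNA microarray, as 2 of the 611 mouse miRNAs it measures. Both were taken by their names in the array files. They were chosen by their seed and transcript, with their detection calls and signals in the 3 tissues already known, so their levels are given as a description and were not tested. The tissues were terminal end buds (TEBs, 3 arrays), mature ducts (2 arrays) and distal stroma (3 arrays), micro-dissected under a fluorescence microscope from 5-week-old female beta actin-GFP reporter mice of the FVB/n strain. The mice of all 3 tissues carried the same reporter and were otherwise untreated as far as the labels say, and nothing in the labels ties an array to an animal, so that the spread between arrays may be technical. Micro-dissected tissue is a mixture, in which fewer cells of a type and less RNA per cell cannot be told apart.

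A miRNA is cut from a hairpin in its primary transcript and guides a silencing complex to mRNAs that pair with its seed, the bases near its 5′ end, so that miRNAs with a common seed can bind many of the same targets. miR-132 and miR-212 lie side by side in 1 primary transcript, which is best known in neurons, where the transcription factor CREB induces it. In the mammary gland the pair has been studied in knockout mice with opposite outcomes: loss of both was described as stunting the outgrowth of ducts, with the stroma as the site of action, and a later knockout was described as forming ducts normally. TEBs are the growing tips that drive this outgrowth at puberty, and mature ducts are the tubes that they leave behind.

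The mature sequences show why the pair is treated as a family. In RefSeq (GRCm38.p6), both hairpins lie on the plus strand of chromosome 11, Mir212 at chr11:75173388-75173478 and Mir132 at chr11:75173682-75173747, with 203 bases between them. No other annotated gene overlaps the pair, and the nearest protein-coding genes are Hic1 on the side of Mir212 and Ovca2 on the side of Mir132. The array carries 1 name for each hairpin, without an arm suffix. In the naming of that time an unsuffixed name stood for the dominant strand, here the 3p arm, and the files hold no probe sequence with which to check this. The sequences below are written 5′ to 3′ with the seed (bases 2 to 8) in capitals.
miR-132-3p: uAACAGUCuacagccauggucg
miR-212-3p: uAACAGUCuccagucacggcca
The 2 sequences are 22 bases long and are identical at 17 positions, including the first 9. Counted from the 5′ end, miR-132-3p differs from miR-212-3p by A10C, C14U, U17C, U20C and G22A. Of the 1679 mature mouse miRNA names in the RefSeq table, only these 2 have this seed, so the array names for this seed family are these alone.

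miR-132 was detected in TEBs alone, at a low level, and miR-212 was detected nowhere. Detection here is the call of the scanner software, which for 96.9% of the calls on mouse miRNAs equals a signal above 3 times its own error. The signal of miR-132 was 11.9, 20.6 and 17.7 scanner units on the 3 TEB arrays, -2.96 and 1.92 units on the duct arrays, and -5.23, -5.20 and 0.0838 units on the stroma arrays. All 3 TEB arrays were above every other array, and the duct and stroma arrays overlapped. The signal of miR-212 was 2.39, 3.16 and -1.45 units in TEBs, -3.91 and -2.45 units in ducts, and -3.70, -1.57 and -1.25 units in stroma. Every one of these miR-212 signals was smaller in size than its own scanner error, which ran from 3.63 to 10.4 units. Since background is subtracted, a negative signal means a miRNA no brighter than the background estimate.

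**Figure D1:**
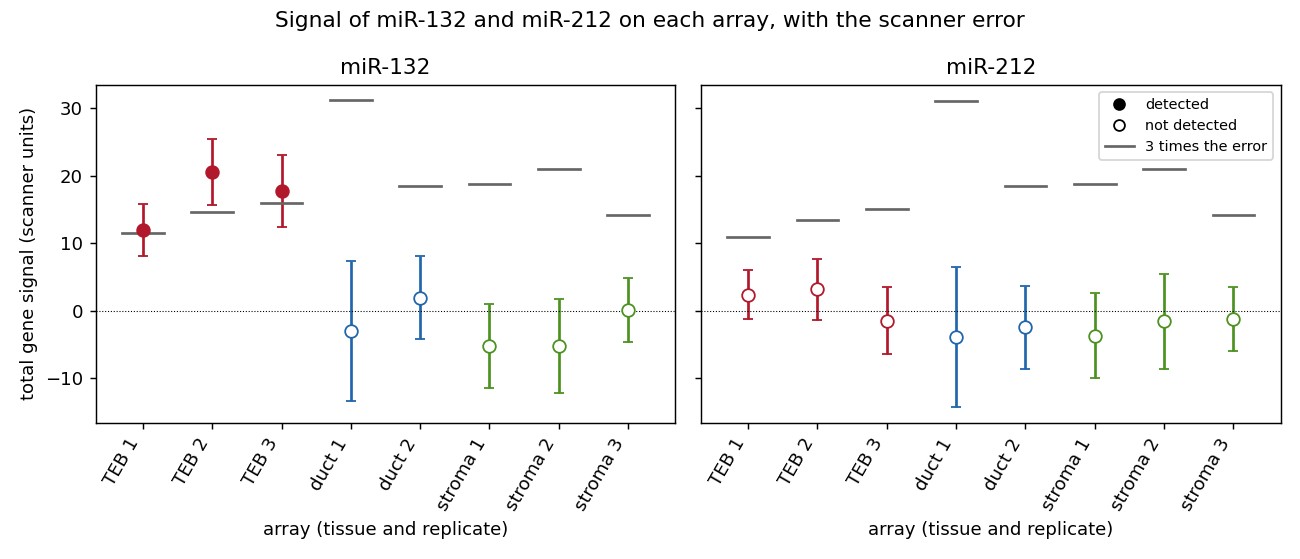
Total gene signal (scanner units, y axis) of miR-132 (left) and miR-212 (right) on each of the 8 arrays (x axis, coloured by tissue), with bars for the scanner error and a grey dash at 3 times that error. Filled circles are detected miRNAs: miR-132 clears its dash on the 3 TEB arrays only, at 11.9 to 20.6 units, and miR-212 stays under it on all 8.

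The detected signals of miR-132 stood just above the limit. The signal was 3.09, 4.22 and 3.32 times its error on TEB replicates 1, 2 and 3. In ducts the same ratio was -0.285 and 0.311, and in stroma it lay between -0.836 and 0.0178. Between 142 and 169 of the 611 mouse miRNAs were detected per array. Ordered by signal, miR-132 was at position 152, 133 and 140 of the 611 in TEBs. It was at positions 260 and 238 in ducts, and at 287, 289 and 271 in stroma. These positions do not depend on any scaling between arrays, and the TEB positions were apart from all others. The share of all mouse miRNAs with TEB positions apart in this way was not computed. With scaled signals, 32.7% had all TEB arrays above all others. Among the detected miRNAs only 10 of 161, 32 of 165 and 18 of 156 had a lower signal than miR-132 on the 3 TEB arrays. miR-212 was at positions 208, 217 and 273 in TEBs, 266 and 291 in ducts, and 266, 247 and 298 in stroma, so that its TEB positions overlapped with those of the other tissues.

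To compare tissues, each array was scaled to the 75th percentile of the 108 mouse miRNAs detected on all 8 arrays, with factors from 0.750 to 1.36. For miR-132 the TEB arrays averaged 16.6 ± 4.1 scaled units (SD over n = 3), the duct arrays -0.339 ± 2.66 (SD over n = 2) and the stroma arrays -3.82 ± 3.44 (SD over n = 3). The mean of TEBs exceeded that of ducts by 16.99 scaled units and that of stroma by 20.5 units. The scanner errors of the arrays combine to 5.36 units for the first difference and 4.94 units for the second. Ducts and stroma differed by 3.49 units, with a combined scanner error of 6.18 units and overlapping arrays. All 8 arrays lay on 1 slide. Its first row held TEB replicates 1 and 2, duct replicate 1 and stroma replicate 1. The second held TEB replicate 3, duct replicate 2 and stroma replicates 2 and 3. TEBs exceeded ducts by 18.0 units in the first row and 16.9 in the second, and stroma by 21.1 and 21.5 units. Against ducts, the second row sets a single array against a single array. In order of level, then, TEBs came first, and ducts and stroma were not apart beyond their spread.

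For miR-212 the TEB arrays averaged 1.29 ± 2.45 scaled units (SD over n = 3), the duct arrays -2.45 ± 0.69 (SD over n = 2) and the stroma arrays -2.45 ± 1.15 (SD over n = 3). TEBs exceeded ducts and stroma by 3.74 and 3.75 units, less than the combined scanner errors of 5.27 and 4.85 units. The TEB arrays lay above all others by only 0.446 units over ducts and 0.182 units over stroma. In the unscaled signals TEB replicate 3 (-1.45) was below stroma replicate 3 (-1.25). No fold change is given for miR-212, which was at or under the background in each tissue. At this signal over background a difference in miR-212 between tissues was not detectable.

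A TEB signal above all others was common on these arrays. With scaled signals, 32.7% of the 611 mouse miRNAs had all TEB arrays above all duct and stroma arrays, as both members did. Against ducts alone the share was 41.1% and against stroma alone 45%. Among the 408 mouse miRNAs detected on no array, of which miR-212 is one, the share was 40.9%. The undetected miRNAs had a median scaled signal of -3.81 to -6.89 units on the TEB arrays, -13.4 and -7.39 units on the duct arrays and -8.21 to -15.3 units on the stroma arrays. The undetected miRNAs as a body therefore also lay higher on the TEB arrays than on the others, and the part of this in the excess of the pair was not tested.

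When that median was subtracted from each array before scaling, a step chosen after these values had been seen, miR-132 was at 15.9, 24.2 and 25.4 units in TEBs. The duct arrays were then at 11.1 and 8.94 units, the stroma arrays at 6.37, 8.93 and 8.33 units. The TEB arrays still lay above all others, and the excess over ducts and stroma came to 11.8 and 14.0 units. For miR-212 the order turned. It was at 6.26, 7.58 and 5.39 units in TEBs, 10.4 and 5.43 units in ducts and 7.93, 13.3 and 6.52 units in stroma, so that TEBs were lower than ducts by 1.49 units and than stroma by 2.83 units on average, with overlapping arrays. By this measure 22.3% of the mouse miRNAs had all TEB arrays above all others, 29.6% had them above the duct arrays and 30.1% above the stroma arrays.

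**Figure D2:**
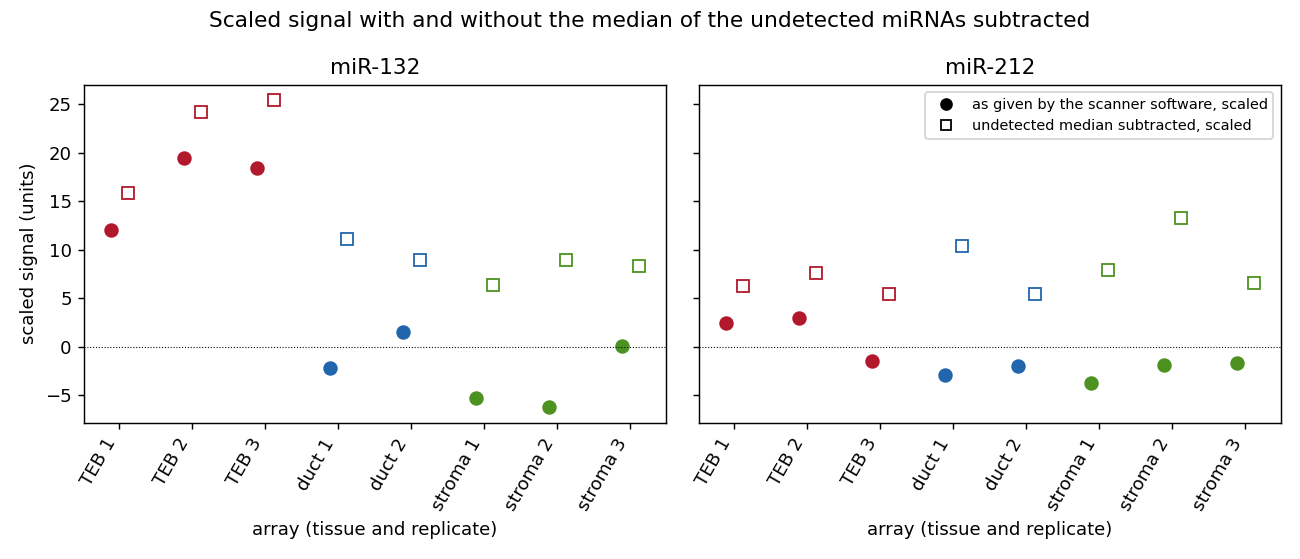
Scaled signal (units, y axis) of miR-132 (left) and miR-212 (right) on each array (x axis, coloured by tissue), as given by the scanner software (filled circles) and with the median of the undetected mouse miRNAs of that array subtracted first (open squares). The TEB arrays of miR-132 stay highest in both, with 15.9 units or more in the open squares, whereas miR-212 loses its order between tissues.

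The arrays also differed in how faint a miRNA they could detect. The median scanner error of the undetected miRNAs was 2.55, 3.17 and 3.55 units on the TEB arrays, 7.39 and 4.36 units on the duct arrays, and 4.46, 5.02 and 3.35 units on stroma replicates 1, 2 and 3. Of all mouse miRNAs whose signal lay in the range of miR-132 in TEBs, 96.4%, 83.3% and 64.3% were detected on the 3 TEB arrays. The same share was 8% (2 of 25) and 44.4% on the duct arrays, and 40.7%, 34.5% and 70.3% on the stroma arrays. The range was taken in unscaled signals and held 25 to 37 miRNAs per array. On duct replicate 1 the signal of miR-132 would have had to pass 31.1 units to exceed 3 times its error. The part of these differences in the detection calls was not tested. In scanner units the error of miR-132 was 4.71 on stroma replicate 3 and 3.85, 4.88 and 5.32 on TEB replicates 1, 2 and 3. In scaled units it was 6.41 on stroma replicate 3 and 3.87, 4.62 and 5.56 on the TEB arrays. The order of these errors thus depends on the scaling. The signal of miR-132 on stroma replicate 3 was 0.0838 scanner units.

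**Figure D3:**
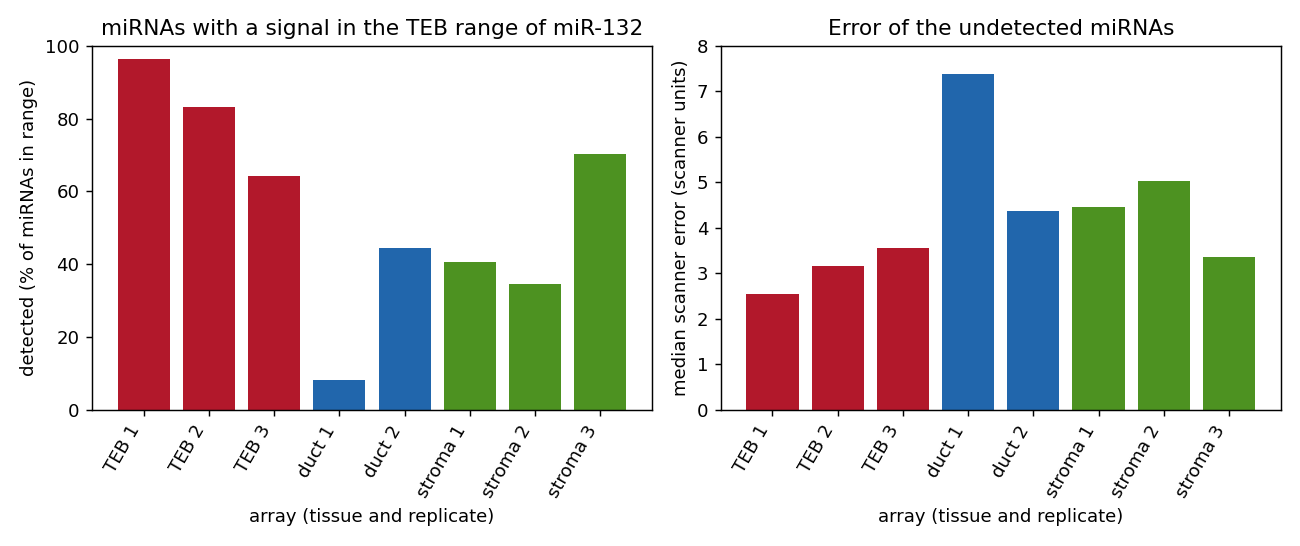
Left, the share (%, y axis) of mouse miRNAs with an unscaled signal in the range of miR-132 in TEBs that were detected on each array (x axis, coloured by tissue). Right, the median scanner error (scanner units) of the undetected mouse miRNAs on the same arrays. The share was 64.3% to 96.4% on TEB arrays and 8% on duct replicate 1, where the error was highest at 7.39 units.

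Because miR-132 was below detection outside TEBs, no fold change is given for it, and its TEB signal was set against limits of detection instead. The mean log2 signal of TEBs was 1.57 above the lowest signal detected on the duct arrays and 1.13 above that on the stroma arrays. These distances rest on the faintest detected miRNA of each array and range widely with the array left out, from 0.718 without duct replicate 2 to 2.20 without duct replicate 1 (log2, against ducts) and from 0.511 without stroma replicate 3 to 1.45 without stroma replicate 2 (against stroma). With 3 times the error of miR-132 itself as the limit, the distances were -0.193 for ducts and -0.370 for stroma, so that the TEB signal lay under the limit of the other tissues. With the undetected median subtracted they were 0.459 and 0.164. Setting scaled signals under 1 unit to 1, a usual way to take logarithms, would give log2 differences of 3.71 and 4.02, values that the floor sets.

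Of the 2 members, 1 passed the requirement of detection on every array of at least 1 tissue, and miR-132 passed it only through TEBs, where it was high. In the fit over the 167 miRNAs that passed (limma), the share called (Benjamini-Hochberg adjusted p under 0.05) was 24.6% for TEBs against ducts, 64.7% for TEBs against stroma and 21.6% for ducts against stroma. The rule used the values of these contrasts, so nothing is read from them about miR-132. Between TEBs and stroma, 34 were called higher in TEBs (20.4%) and 74 higher in stroma (44.3%). That split depends on the scaling, and was 38 against 28 with the percentile taken over all mouse miRNAs. The calls between ducts and stroma were 16 higher in ducts (9.58%) and 20 higher in stroma (12%), and with no scaling 52 and 4. Those between TEBs and ducts were 19 higher in TEBs (11.4%) and 22 higher in ducts (13.2%), while the split was 12 and 63 with no scaling, 24 and 6 with the percentile over all mouse miRNAs, 30 and 12 with quantile normalization and 32 and 18 with the authors' log2 table.

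Detection in TEBs alone was shared with 4 miRNAs, miR-669f, miR-31, miR-188-5p and miR-135a*. Each was detected on every TEB array and on no duct or stroma array. With miR-132 these are 5 of the 611 mouse miRNAs, of which 203 were detected on any array. Detection in ducts alone or in stroma alone was not counted. The scaled signal of miR-188-5p was 28.9, 26.1 and 22.4 units in TEBs, -3.40 and 1.67 units in ducts, and -12.2, -16.9 and -5.86 units in stroma. That of miR-31 was 15.3, 18.1 and 11.5 units in TEBs, -10.1 and -1.29 units in ducts, and -19.7, -26.7 and -16.8 units in stroma. miR-669f, from a rodent cluster in an intron of Sfmbt2, had 19.7, 16.5 and 11.99 units in TEBs, -0.740 and 7.29 units in ducts, and -0.253, -2.52 and 7.41 units in stroma. For miR-135a*, the minor strand of its hairpin, the signals were 14.3, 11.1 and 5.17 units in TEBs, all below 0 elsewhere. Over the 5 miRNAs the TEB signals lay between 5.17 and 28.9 scaled units, and no duct or stroma signal passed 7.41 units. Their signal in TEBs was 1.37 to 9.77 times its error.

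**Figure D4:**
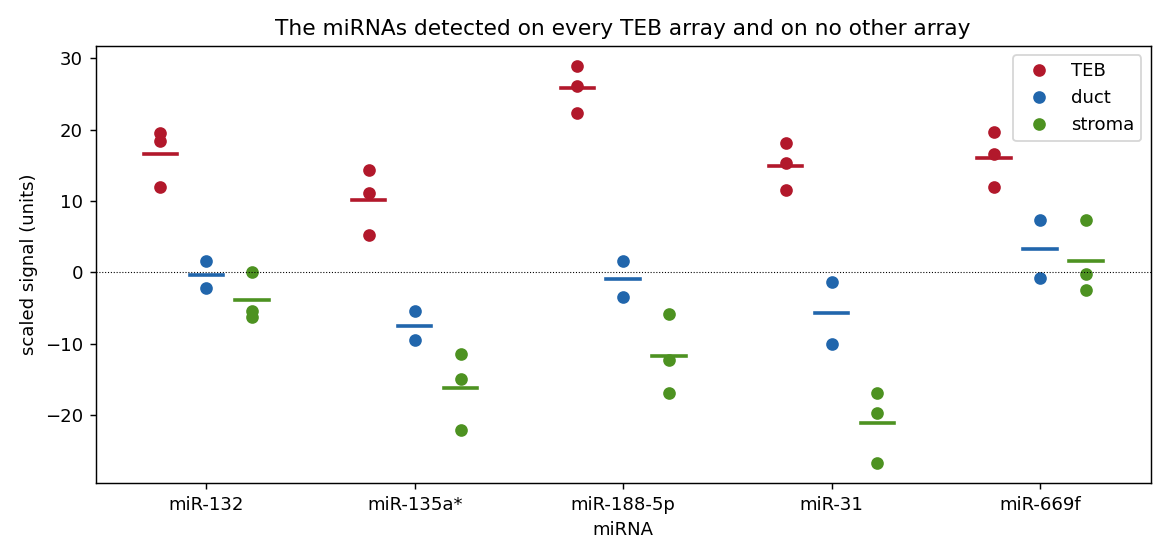
Scaled signal (units, y axis) of the 5 miRNAs detected on every TEB array and on no other array (x axis), with a point for each array and a line at the mean of each tissue. For each of the 5 the TEB points lie above its duct and stroma points. miR-132 sits between 11.99 and 19.5 units in TEBs.

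Among the 166 other tested miRNAs, the 5 whose log2 signal followed miR-132 most closely over the 8 arrays were miR-188-5p (Pearson r of 0.99), miR-31 (0.99), miR-20b (0.97), miR-455 (0.96) and miR-19a (0.95). These correlations are a description over 8 arrays of 3 tissues, with signals under 1 unit set to 1, so that arrays at the floor count as equal. The first pair do not have the seed of miR-132, as their sequences show with bases 2 to 8 in capitals.
miR-188-5p: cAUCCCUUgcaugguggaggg
miR-31-5p: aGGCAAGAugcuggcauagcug
The others differ from miR-132 in being detected outside TEBs. miR-20b, encoded by an X-linked paralogue of the miR-17 cluster, averaged 108 ± 18.8 scaled units on the TEB arrays (SD over n = 3), 50.7 ± 4.3 on the duct arrays (SD over n = 2) and 36.5 ± 3.6 on the stroma arrays (SD over n = 3). miR-455, from an intron of the collagen gene Col27a1, had 84.4 ± 1.8, 43.0 ± 2.2 and 43.9 ± 7.3 units in the same order. miR-19a, of the proliferation-linked miR-17 cluster, had 88.2 ± 4.8, 27.6 ± 4.9 and 16.1 ± 4.8 units. Only 2 of the 5 stayed among the nearest 5 without TEB replicate 3 or with Spearman correlation.

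Other miRNAs with a known part in mammary gland development gave a setting for the pair. Of the 14 on that list, 10 were tested. Like miR-132, miR-31 passed the detection requirement only through TEBs, so its call is not read as a test. It averaged 14.97 ± 3.32 units in TEBs (SD over n = 3) against -5.67 ± 6.19 units in ducts (SD over n = 2). Of the 9 others, 0 were called between TEBs and ducts, beside 24.6% of all tested miRNAs. That count depends on the scaling. The list with miR-31 had 3 called higher in TEBs with quantile normalization, and 1 higher and 3 lower with no scaling. Between TEBs and stroma, miR-31, miR-141, miR-200c, miR-205 and miR-221 were called higher in TEBs, but they were detected on 0 stroma arrays and passed only through the tissues where they are high. Of the other 5 tested, 3 were lower in TEBs, beside 44.3% of all tested miRNAs, so the count is not read as a trait of the list. They were miR-101a, miR-126-3p and miR-193b, a regulator of mammary stem and progenitor activity. With the percentile over all mouse miRNAs 0 were lower in TEBs than in stroma. Between ducts and stroma, where 21.6% of all tested miRNAs were called, miR-126-3p and miR-193b were lower in ducts, a count that fell to 1 in 10 of 22 alternatives. miR-141, miR-146b, miR-200c and miR-205 were called higher in ducts, and of these only miR-146b was detected in stroma. miR-193b averaged 1048 ± 158 scaled units on the stroma arrays (SD over n = 3), 374 ± 61 on the duct arrays (SD over n = 2) and 455 ± 81 on the TEB arrays (SD over n = 3). let-7c and miR-146b did not pass the test between TEBs and stroma. miR-138, miR-150, miR-206 and miR-30b were not detected on every array of any tissue and were not tested, as was the case for miR-212.

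Markers of the dissected cells were read beside the pair. Of 10 epithelial miRNAs, all TEB and all duct arrays detected 8, and stroma arrays detected 0. Since these 8 were tested only because the epithelial tissues detected them, their levels are given without a test against stroma. miR-200c and miR-200b, which hold cells in the epithelial state, had 821 ± 15.7 and 513 ± 13.9 scaled units (SD, n = 3) in TEBs and -16.2 ± 5.9 and -5.89 ± 3.20 (SD, n = 3) in stroma. Between TEBs and ducts, 24.6% of all tested miRNAs were called. There miR-200a was lower in TEBs (log2 difference of -1.57, standard error 0.13, limma adjusted p = 0.00037). That call was lost with the floor at the lowest detected signal. miR-183 (adjusted p = 0.0148) and miR-96 (adjusted p = 0.0466) were called higher by limma, but the number of epithelial miRNAs called higher ran from 0 to 4 over 22 alternatives, with 0 without TEB replicate 2, without duct replicate 1 and with no scaling, and 1 with the replicate number as a block. The 10 epithelial miRNAs summed to 2059 to 2193 scaled units in TEBs and 2158 and 2373 units in ducts, and to -91.7 to -32.4 units in stroma. miR-203 and miR-182 of this list were detected nowhere.

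The 6 tested mesenchymal miRNAs were detected on every array, TEBs and ducts included. Between TEBs and stroma, 3 were higher in TEBs, miR-214, miR-199a-5p and miR-199a-3p. miR-143 was lower, a call lost with the percentile over all mouse miRNAs. Of all tested miRNAs, 20.4% were called higher in TEBs than in stroma and 44.3% lower, so these calls do not mark the list. The share called lower in TEBs than in ducts was 13.2%. Between TEBs and ducts miR-143 alone of the 6 was called, lower in TEBs (limma adjusted p = 0.0274), and 0 were with that percentile, quantile normalization or the replicate number as a block, or without TEB replicate 2, duct replicate 1 or duct replicate 2. The list summed to 3278 to 3905 units in TEBs, while ducts had 3573 and 3674 units and stroma 2611 to 3139 units. The TEB array with the lowest sum, replicate 1, also had the lowest miR-132. That array was the lowest of the TEB arrays in the epithelial, leukocyte, endothelial and muscle sums too, though not in the red cell and neural sums. The match is thus not particular to the mesenchymal list, and it rests on the order of 3 arrays. The part of other cells of the dissected tissue in the miR-132 signal was not tested.

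miR-132 and miR-212 are abundant in neurons, so neural miRNAs were read as well. Of the 9 on the list, 7 were detected on no array, among them the defining miR-124, miR-9 and miR-137. miR-128 was detected on 2 TEB arrays and 1 stroma array. Only miR-338-3p, also known from oligodendrocytes, was tested. It was lower in TEBs than in stroma (log2 difference of -1.06, standard error 0.28, limma adjusted p = 0.016), as were 44.3% of all tested miRNAs. This call was also lost with the percentile over all mouse miRNAs. The list summed to -39.7 to 35.2 scaled units in TEBs, while ducts had -62.6 and 32.0 units and stroma -42.5 to 59.4 units, with no order between the tissues.

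No blood, vessel or muscle miRNA was called higher in TEBs. Between TEBs and stroma the leukocyte miR-223, the endothelial miR-126-3p and the red cell miR-451 and miR-144 were lower in TEBs. Of the 2 tested muscle miRNAs 0 were called. Since 44.3% of all tested miRNAs were called lower in TEBs than in stroma, these calls are not read as a result about the lists. The 4 calls were lost with the percentile over all mouse miRNAs. Both red cell calls stood in only 11 of 22 alternatives, and were lost with no scaling and with quantile normalization. Between TEBs and ducts none of these lists had a call, beside 24.6% of all tested miRNAs. The leukocyte, endothelial, red cell and muscle lists had 2, 1, 2 and 2 miRNAs tested. With no scaling, 1 endothelial, 1 red cell and 2 muscle miRNAs were called lower in TEBs than in ducts.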

How the data were processed

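miRNAs of micro-dissected TEBs, mature ducts and stroma were measured on Agilent single-colour mouse miRNA arrays, and samples were grouped by their titles. The authors deposited, per the file headers, the total signal intensity of each miRNA, its error and a detection call, made with Agilent Feature Extraction 9.5.3, summed over probes, background-subtracted and not normalized between arrays. They also deposited a table of log2 values with the same upper quartile and maximum on every array but not the same median, by a method not given in the sources used here. Control probes and 39 viral probes were left out. Signals were scaled as described, with a floor of 1, and their log2 values were fitted with limma 3.58.1 (R 4.3.3; lmFit, eBayes, all 8 arrays, Benjamini-Hochberg within each comparison at 0.05). The fit was tested on simulated data with a higher floor than here and tissues alike apart from set changes. That test does not cover miRNAs at the floor in some tissues. No counts exist, so the number of arrays limits the precision. The members and lists were chosen with earlier results of these data known. Besides the pair, the miRNAs named were those sharing its seed or detection pattern, the 5 nearest, the whole mammary development list and, from each marker list, the 2 called with the largest change between TEBs and stroma. Further list members were named to spell out small counts. Alternatives covered the scaling, the floor, the detection filter, the test, the replicate number, the slide row and each array left out.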

Additional observations from a re-analysis of the deposited data

How the results depend on the processing

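The excess of miR-132 in TEBs kept its direction in scaled units under each scaling, array left out, slide row and block tried. The lowest TEB array lay 10.4 units above the highest duct array and 11.9 above the highest stroma array. Leaving out an array or splitting by row therefore could not turn the direction, and is no test of it. The detection of miR-132 stands at the edge of what these arrays resolve, which limits every statement on miR-212. With quantile normalization the excess was 21.8 units over ducts and 24.3 over stroma, and with the undetected median subtracted 11.8 and 14.0. Leaving out 1 array gave 13.9 to 18.7 units over ducts, 18.9 to 23.5 over stroma and 1.56 to 5.70 for ducts less stroma.

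The log2 distance of miR-132 in TEBs from the lowest detected signal of ducts and of stroma (1.57 and 1.13 as reported) was 2.12 and 1.52 with the percentile over all mouse miRNAs, 2.30 and 2.06 with quantile normalization, 0.627 and 0.473 within the first slide row, 2.60 and 1.59 within the second, and 0.459 and 0.164 with the undetected median subtracted. Fitted differences were 3.71 and 4.02 with the floor of 1, and 0.955 over ducts with 16 added. With 3 times the error as the limit, chosen after seeing the data as was the subtracted median, the values were -0.193 and -0.370. Without 1 array the distances ran from 0.718 (without duct replicate 2) to 2.20 (without duct replicate 1) over ducts and from 0.511 (without stroma replicate 3) to 1.45 (without stroma replicate 2) over stroma. The cause was not tested.

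miR-212 in TEBs less ducts was 0.446 units within the second slide row, and less stroma 6.48 within the first and 0.275 within the second. With the undetected median subtracted these values were -1.49 and -2.83, and ducts less stroma -1.34. Leaving out 1 array gave 2.87 to 5.23, 2.88 to 5.14 and -0.658 to 0.40.

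Between TEBs and ducts 41 miRNAs were called, against 75 with no scaling, 71 with 16 added, 18 with no detection filter and 12 by the methods' t-test after Benjamini-Hochberg adjustment. Leaving out 1 array gave 5 (without TEB replicate 2) to 70 (without TEB replicate 1), with 10 without duct replicate 1. The percentile over all mouse miRNAs gave 66 between TEBs and stroma (108 as reported) and 19 between ducts and stroma (36), and no scaling 56 for the latter. Leaving out 1 array gave 82 to 114 and 26 to 40. The scaling moved the median log2 difference of all tested miRNAs between TEBs and ducts from -0.10 to 0.45 with the percentile over all mouse miRNAs and to -0.47 with none.

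Arrays of different tissues share only a replicate number. The deviations from the tissue mean correlated at -0.104 on average over the 7 same-numbered pairs, and above 0.1 in 2 of them. Over the 14 differently numbered pairs the average was 0.0518, with 7 above 0.1. With 2 duct arrays the duct deviations are mirror images, so the pairs with ducts are not independent. With the replicate number as a block, 16 miRNAs were called between TEBs and ducts.

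Of the 5 nearest miRNAs, 3 were kept with the percentile over all mouse miRNAs and with no scaling, 2 with Spearman correlation, and 2 to 5 without 1 array.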

Other observations

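The authors' log2 table of the same arrays held miR-132 at 4.66, 5.03 and 4.86 in TEBs, 2.73 and 3.13 in ducts and 2.10, 2.00 and 2.54 in stroma. The 3 TEB values lay above all others, but these are the same arrays and not a second measurement. The share of all miRNAs with this order was not computed for that table. With scaled signals it was 32.7%. miR-212 was at 3.58, 3.44 and 2.50 in TEBs, 2.62 and 2.00 in ducts and 2.62, 2.96 and 1.81 in stroma, where the tissues overlapped. Column medians were 1.48 on 6 arrays, 0.169 on duct replicate 1 and 0.139 on stroma replicate 2. The columns rank the miRNAs like the scanner signals (Spearman correlation of 0.923 to 0.997 across miRNAs, which are not independent replicates). The offset added before the logarithm stays unknown, so these differences are not fold changes of the signal.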
